A study of Mus musculus with 6 samples.

Results

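The Hox genes of the mouse are 39 protein-coding genes of the GENCODE M21 annotation, named *Hoxa*, *Hoxb*, *Hoxc* or *Hoxd* with a number, and here they were asked for Gli3 binding sites (GBS) in the embryonic cortex. They are 39 of the 21938 protein-coding genes on chromosomes 1 to 19, X and Y. The rule uses the name alone, and the family was picked with earlier results of these data known. The GBS came from chromatin immunoprecipitation and sequencing (ChIP-seq) of cortices dissected from wild-type embryos at embryonic day 15. It comprised 3 Gli3 ChIP libraries and 3 input DNA libraries, the latter made from chromatin that was not immunoprecipitated. All animals were wild type, no treatment was given, and the cortex was taken whole, so that cells of several types were mixed. The authors' list joins the replicates and, as used here, holds 4114 GBS on mm10, each with a position and no height, score or p-value, so that neither a value per replicate nor the read depth can be given. The paper's text counts more GBS than this list holds, and GBS outside the list were not analysed here, so that each absence is an absence from the list. No GBS of the list had its midpoint within 50 kb of the transcription start site (TSS) of a Hox gene.

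Hox genes encode homeodomain transcription factors that assign position along the head-to-tail axis. They lie in the clusters HoxA, HoxB, HoxC and HoxD, in which the order of the genes follows the order of their expression domains, with paralog group 1 most anterior and group 13 most posterior. They act in the hindbrain, the spinal cord, the trunk and the limbs, and in the forebrain they are known to be held silent under histone marks of the Polycomb proteins. Gli3 is a zinc finger protein of the Hedgehog pathway which, cut to its repressor form, holds target genes off where no Hedgehog signal is received. In the limb bud, Gli3 and the posterior Hox genes are known to act on each other. The files hold positions of Gli3 and no expression values, so that the silence of the Hox genes in these cortices was not checked.

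The DNA sequence preferred by Gli factors has GACCACCCA as its best conserved stretch, and this word of 9 bases is named the GLI core in what follows. The sequence within 50 kb of the Hox TSSs held 6 exact cores, counted on both strands of mm10, and none of them was in a GBS. They are shown because they are the places where a Gli site could have been looked for first. Each line gives 10 bases on either side, on the strand of the core and with the core in capitals:
HoxA core 1: cacattatttGACCACCCAgtgcctgctc
HoxA core 2: aggctggcctGACCACCCAgttctcccaa
HoxA core 3: cacagacgctGACCACCCAttgtttccaa
HoxB core 1: gcttcctgtgGACCACCCAccccaagaaa
HoxC core 1: caaacaactgGACCACCCAgagttcccag
HoxC core 2: cctgagccctGACCACCCAcccagaaagc

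HoxA core 3 was the only one between the first and the last base of a Hox cluster. It lies on the plus strand of chr6:52239880-52239888, in an intron of *Hoxa10* and 970 bp downstream of its TSS. HoxA cores 1 and 2, at chr6:52114493-52114501 on the plus strand and chr6:52123209-52123217 on the minus strand, lie in intergenic sequence outside the cluster. HoxB core 1, at chr11:96165556-96165564 on the minus strand, is intergenic and 28756 bp upstream of the *Hoxb13* TSS. HoxC core 1, at chr15:102903039-102903047, is 18060 bp upstream of *Hoxc13*, and HoxC core 2, at chr15:103038738-103038746, is 19808 bp downstream of the *Hoxc4* TSS. Both are intergenic and on the plus strand. Within 50 kb of the HoxD TSSs there was no exact core. The distance from a core to its nearest GBS ran from 143.9 kb, at HoxC core 2, to 620.1 kb, at HoxA core 3.

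With the 50 kb on either side included, the number of cores was close to the genome's own rate. The 0.867 Mb within 50 kb of a Hox TSS held 6.92 cores per Mb, against 7 per Mb in the placed genome, at which rate 6.07 would be there. The clusters alone, 0.492 Mb from first to last base, held 1 core, or 2.03 per Mb. This is a small count, and the difference was not tested. A core without a GBS was also the usual case. Of the 18532 cores of the placed genome, 591 lay inside a GBS, which is 3.19%, and 96.8% did not. The shorter word GACCACCC, which every core contains, occurred 27 times near Hox genes, or 31.2 times per Mb, against 17.2 per Mb in the genome. None of the 39 Hox genes had an exact core within 500 bp of its TSS, and 0.848% of all protein-coding genes had one.

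The clusters are compact. HoxA, with 11 genes read from the minus strand, covers chr6:52155590-52260880, or 105.3 kb. HoxB has 10 genes over 173.9 kb at chr11:96194316-96368256, of which *Hoxb13* stands apart from the other 9. HoxC has 9 genes over 115.8 kb at chr15:102921103-103036852, and HoxD 9 genes over 96.8 kb at chr2:74668310-74765142, all on the plus strand. The genes of a cluster therefore share their surroundings, and the 39 genes amount to 4 stretches of the genome rather than to 39 separate observations.

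With 50 kb added beyond the outermost TSSs, the stretches were 202.6 kb (HoxA), 271.4 kb (HoxB), 197.8 kb (HoxC) and 194.7 kb (HoxD). Each contained 0 GBS, and no GBS touched any of them with a single base. Among all protein-coding genes, 23.5% had a GBS within 50 kb of the TSS, against 0 of the 39 Hox genes, a count that would allow a share of up to 7.69% if the genes were independent, which they are not. At promoters, where the midpoint had to be no more than 2 kb from the TSS, 6.88% of protein-coding genes had a GBS, again against 0 of 39. The 23 Hox genes annotated with more than 1 TSS were no exception, since none of the 83 different TSSs of the 39 genes had a GBS within 50 kb. This includes the outlying TSSs of *Hoxa3* and *Hoxc5*, whose gene records start beyond other Hox genes of their cluster.

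**Figure D1:**
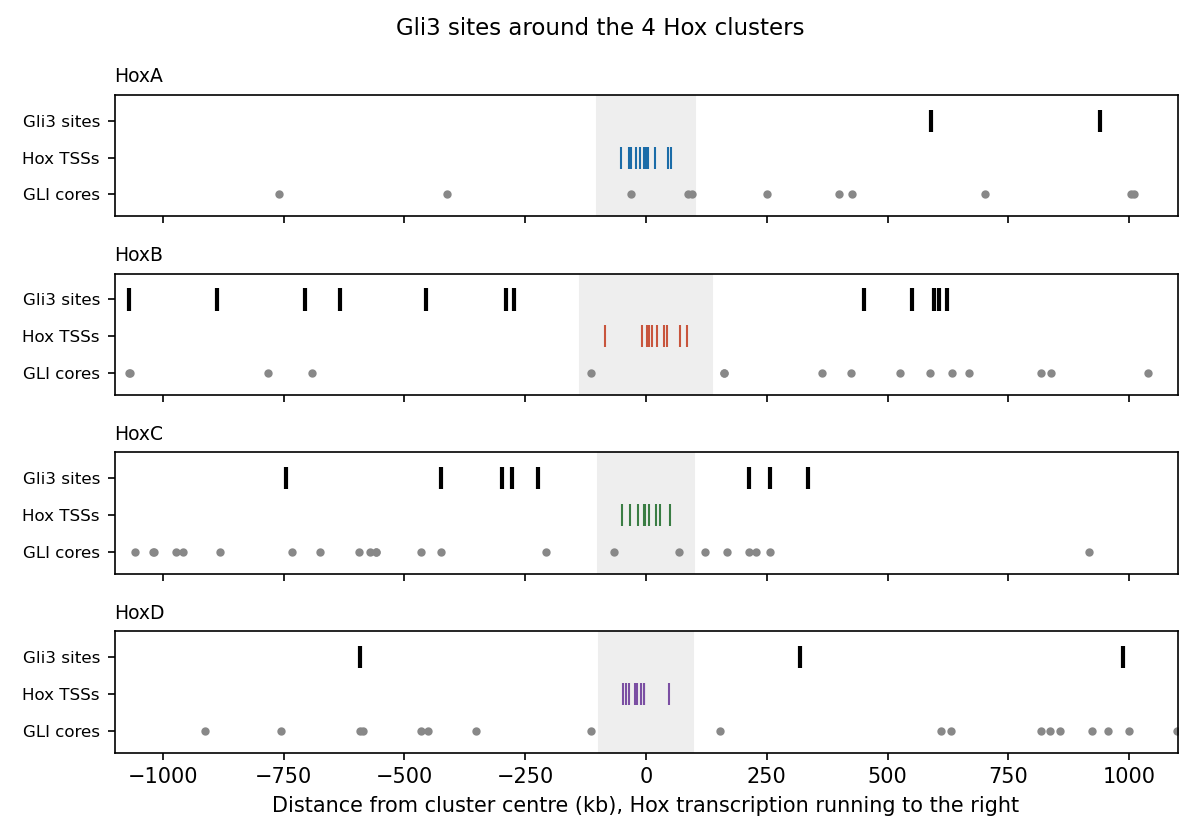
Map of the clusters, with the distance from the cluster centre in kb on the x axis and Hox transcription running to the right. Black bars mark GBS, coloured bars Hox TSSs, grey points exact GLI cores, and the grey band the stretch within 50 kb of a Hox TSS, which holds no GBS in any of the 4 clusters and cores in all but HoxD.

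Counted by length, the emptiness was less marked. The placed genome had 1.55 GBS per Mb, and sequence within 50 kb of any protein-coding TSS had 2.53 per Mb. At these mean rates the 0.867 Mb around the Hox genes would hold 1.34 and 2.19 GBS. A count of 0 there allows up to 3.46 per Mb, taking 3 counts as the limit and covering counting error only, so that a rate below that of the genome or of gene neighbourhoods was not detectable in the Hox clusters. A window without a GBS was also common around other genes. Of all protein-coding genes, 63.2% had no GBS in a window as long as that of HoxA, 56.6% in one as long as that of HoxB, 63.7% for HoxC and 64.0% for HoxD.

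Gene density set the Hox genes apart from most genes. A Hox TSS had a median of 7 other protein-coding TSSs within 50 kb, ranging from 0 at *Hoxb13* to 11 at *Hoxa3* and *Hoxa5*, against a median of 2 over all protein-coding genes. The share of genes with a GBS rose with this number. It was 17% among the other protein-coding genes with no further TSS within 50 kb, 21% with 1 to 2, 28.3% with 3 to 5, 37% with 6 to 8 and 49.9% with 9 to 12. Of the Hox genes, 19 were in the class of 6 to 8 and 11 in that of 9 to 12, and none of these 30 had a GBS. The TSSs counted around these 30 were mostly those of other Hox genes of the same cluster, so that the 30 are not separate observations. Over both classes together, 39.2% of protein-coding genes had one. The sequence within 50 kb of the non-Hox genes of these classes held 5.01 GBS per Mb over 49.5 Mb. This is above the limit of 3.46 per Mb, but that limit covers counting error only, and the family was picked with earlier results known. No lower rate at the Hox genes is concluded from it. At 5.01 per Mb, 4.34 GBS would lie in the 0.867 Mb around all Hox genes. That length is not like for like, since it also covers Hox genes of the sparser classes. These are 1 with no further TSS, 1 with 1 to 2 and 7 with 3 to 5. The classes of 6 to 8 and 9 to 12 hold genes of all kinds, and no test was made between them and the Hox genes.

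Many regions bound by Gli3 in these cortices are CpG-rich gene starts, and so are many Hox starts. A start was called CpG-rich when the stretch of 500 bp on each side of it had a GC content of at least 50% and an observed to expected CpG ratio of at least 0.6. Of the Hox genes 24 (61.5%) met both limits, against 44.4% of all protein-coding genes and 78.6% of those with a GBS within 2 kb. By cluster, 9 of 11 HoxA starts, 3 of 10 HoxB starts, 5 of 9 HoxC starts and 7 of 9 HoxD starts were CpG-rich. The median CpG ratio was 0.678 at Hox starts, 0.552 at all starts and 0.767 at starts with a GBS within 2 kb. The highest Hox value was 0.996 at *Hoxa5* and the lowest 0.181 at *Hoxb2*. Among all genes with a CpG-rich start 30.6% had a GBS within 50 kb and 12.2% within 2 kb, while none of the 24 CpG-rich Hox genes did.

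**Figure D2:**
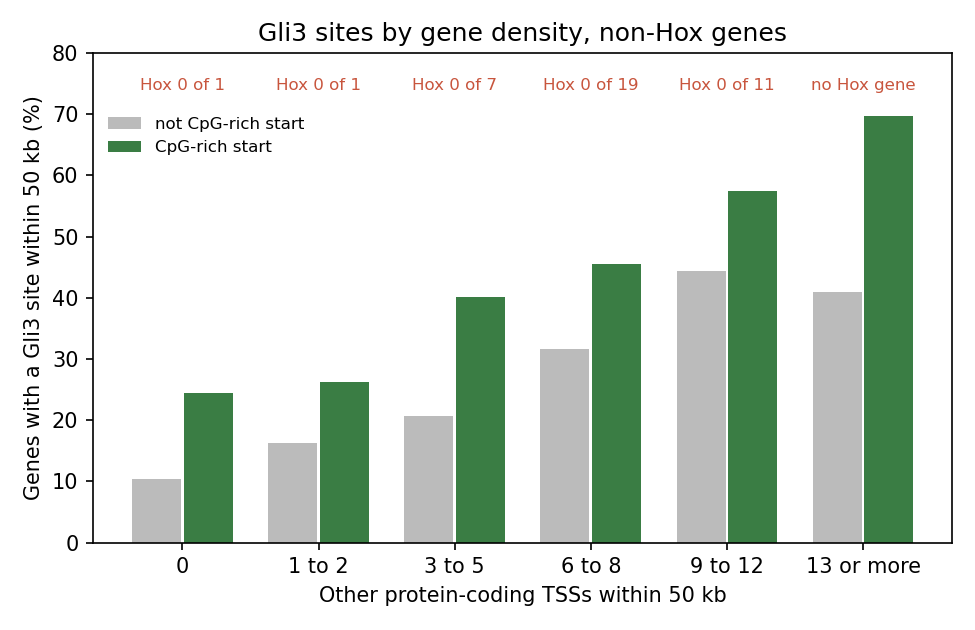
Share of non-Hox protein-coding genes with a GBS within 50 kb, in percent on the y axis, by the number of other protein-coding TSSs within 50 kb and by CpG content of the start. The red text gives the Hox genes of each class, and the bars of the classes of 6 to 8 and 9 to 12, where 30 Hox genes fall, run from 31.6% to 57.5%.

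Repeated sequence took a smaller share of the clusters than of the placed genome, and unknown sequence took none. The windows of all 4 clusters held 0 unknown bases. Repeats, marked in lower case in the assembly, made up 13.4% of HoxA, 24.6% of HoxB, 15.9% of HoxC and 14.4% of HoxD, against 36.4% of the placed genome. These shares are from the first to the last base of each cluster. In the windows, with 50 kb added, they were 22.3% (HoxA), 26.3% (HoxB), 19.5% (HoxC) and 21.8% (HoxD). The GC content of the clusters, 48.9 to 50%, lay between the 41.7% of the genome and the median of 51.4% over all GBS. So did that of the windows, 46 to 48.1%. Whether the authors' repeat filter or the threshold of the peak calling removed weak signal there was not tested, since the list holds no signal.

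The nearest GBS of every Hox gene was at least 163.7 kb away, with a median of 322.8 kb and a maximum of 641.1 kb. For all protein-coding genes the median distance was 177.0 kb, and 37 of the 39 Hox genes were farther than this. The exceptions were *Hoxc4*, at 163.7 kb, and *Hoxc13*, at 174.9 kb, both at the ends of HoxC. These distances were not extreme. *Hoxc4* was farther from a GBS than 47.9% of protein-coding genes, and *Hoxa13*, the farthest Hox gene, was farther than 80.7%. Of all protein-coding genes, 63.5% had no GBS within 100 kb.

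HoxA was the most remote cluster. All 11 genes had the same nearest GBS, a site of 789 bp at chr6:51619384-51620172 in intergenic sequence on the anterior side (away from *Hoxa13*), which lies 75.2 kb from the TSS of *Snx10* and holds no core. *Hoxa2*, a gene of hindbrain patterning, was 545.1 kb from it, and *Hoxa10*, *Hoxa11* and *Hoxa13*, genes of limb and urogenital development, were at 621.1, 626.0 and 641.1 kb. The values for the 6 genes between them, *Hoxa3* to *Hoxa9*, ran from 572.0 to 611.3 kb. On the other side the next GBS began 1890.9 kb beyond the *Hoxa13* TSS, in an intron of *Chn2*. The interval without a GBS that contains HoxA was 2531.6 kb long, and 23.7% of protein-coding genes lay in an interval at least as long.

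HoxD was bounded by GBS at 542.7 kb before the *Hoxd13* TSS and 271.2 kb beyond the *Hoxd1* TSS, an interval of 908.6 kb. *Hoxd1* was the nearest of its genes, at 271.7 kb. *Hoxd3* and *Hoxd4*, whose annotated TSSs are next to each other, were both at 322.8 kb, *Hoxd8* was at 330.1 kb and *Hoxd9* at 337.0 kb. *Hoxd10*, *Hoxd11*, *Hoxd12* and *Hoxd13*, which pattern the digits, were at 342.8, 355.1, 359.7 and 366.4 kb. All 9 had the same nearest GBS, of 1020 bp at chr2:75034188-75035207 and 165.7 kb from the *Mtx2* TSS. The GBS on the *Hoxd13* side, of 2868 bp at chr2:74122748-74125615, was intergenic, 212.9 kb from the nearest protein-coding TSS, that of *Atp5g3*. It held 1 GLI core, at chr2:74123647-74123655 on the plus strand, shown here as the only core in a bounding GBS of HoxD:
HoxD bounding site core: gcagtgttggGACCACCCAgtgtgtcatt
Of all protein-coding genes, 49.9% lay in an interval without a GBS at least as long as that of HoxD.

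HoxB lay in an interval of 721.6 kb, and 57.4% of protein-coding genes in one at least as long. The nearest GBS of all 10 genes was on the *Hoxb13* side, a site of 2427 bp at chr11:96005504-96007930 whose midpoint was 0.8 kb from a TSS of *Igf2bp1*, an RNA-binding protein of embryonic tissue. It was 187.6 kb from *Hoxb13* and 264.7 kb from *Hoxb9*, and *Hoxb8* (275.2 kb), *Hoxb7* (279.9 kb) and *Hoxb6* (285.8 kb) followed. *Hoxb5*, *Hoxb4* and *Hoxb3* were at 296.6, 311.6 and 316.6 kb. *Hoxb2* and *Hoxb1*, which act in hindbrain segments, were at 343.8 and 359.0 kb. *Hoxb1* was nearly midway, since the GBS on its other side, in an intron of *Skap1*, was 364.9 kb away.

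HoxC had the shortest interval, 433.7 kb, and 70.8% of protein-coding genes lay in one at least as long. Its genes were between the GBS of 4129 bp at chr15:102744127-102748255, 24.0 kb from the *Calcoco1* TSS and without a core, and the GBS of 1525 bp at chr15:103181913-103183437. *Hoxc13*, *Hoxc12* and *Hoxc11* were nearest to the first, at 174.9, 190.6 and 208.2 kb. *Hoxc10*, *Hoxc9*, *Hoxc8*, *Hoxc6*, *Hoxc5* and *Hoxc4* were nearest to the second, at 215.9, 206.2, 192.1, 184.4, 215.2 and 163.7 kb. *Hoxc5* is out of order in this series, since its gene record starts next to *Hoxc10*. The second of these GBS was the closest of all to a Hox gene. It is intergenic, 15.6 kb upstream of *Smug1*, a DNA repair glycosylase, and holds 1 GLI core at chr15:103182497-103182505. The 300 bases at chr15:103182352-103182651, read on the plus strand with the core in capitals, are given to show the core inside a GBS that lies closest to a Hox gene:
HoxC bounding site: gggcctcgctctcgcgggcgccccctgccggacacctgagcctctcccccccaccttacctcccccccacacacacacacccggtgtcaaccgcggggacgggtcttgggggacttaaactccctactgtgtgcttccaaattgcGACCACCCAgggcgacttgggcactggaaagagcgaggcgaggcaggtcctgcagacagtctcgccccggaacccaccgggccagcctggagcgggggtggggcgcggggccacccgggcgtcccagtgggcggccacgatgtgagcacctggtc

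**Figure D3:**
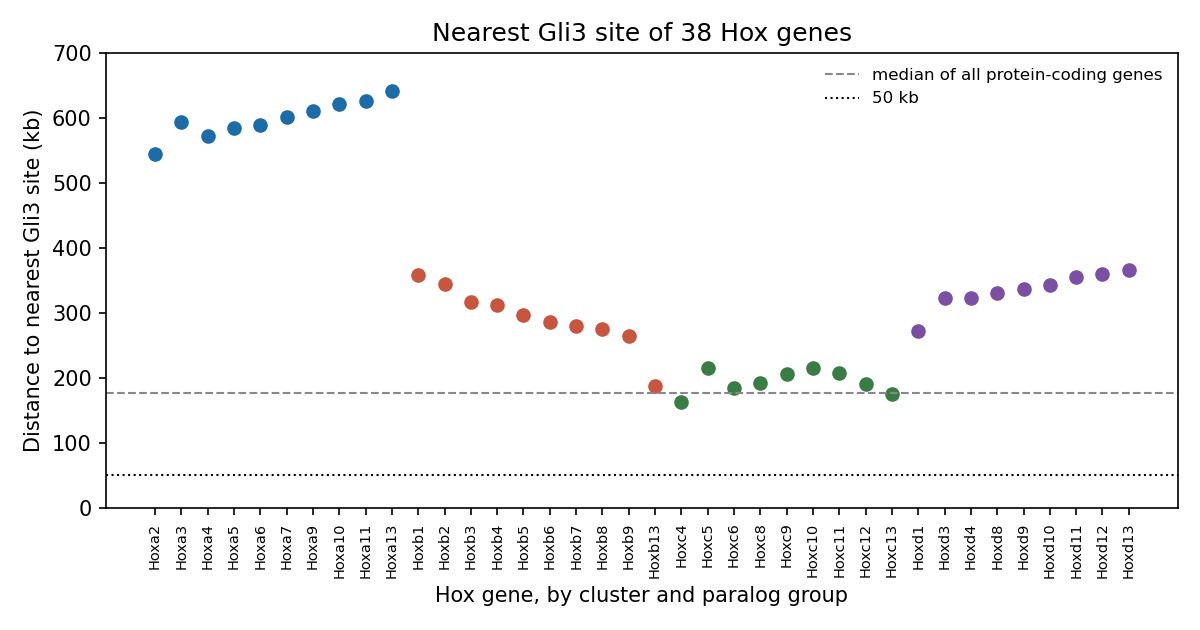
Distance in kb from the TSS of 38 of the 39 Hox genes to the midpoint of the nearest GBS, by cluster and paralog group. No gene comes near the dotted line at 50 kb, HoxC genes lie around the dashed line at the median of all protein-coding genes (177.0 kb), and HoxA genes lie above 500 kb.

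The wider surroundings differed between the clusters. Within 1 Mb of the outermost TSSs there were 12 GBS around HoxB (5.53 per Mb) and 8 around HoxC (3.81 per Mb), above the 2.55 and 1.71 per Mb of their chromosomes, 11 and 15. HoxA had 2 GBS (0.951 per Mb) and HoxD 3 (1.43 per Mb), below the 1.39 and 1.99 per Mb of chromosomes 6 and 2. HoxB and HoxC were thus gaps in stretches with many GBS, and HoxA and HoxD lay in stretches with few. These counts are small and were not tested. Of the 25 GBS, 13 were on the side of the group 13 gene and 12 on the opposite, anterior side, and around HoxA both were on the anterior side. Of the 25, 5 had their midpoint within 2 kb of the TSS of a protein-coding transcript, against 40.4% of all GBS on placed chromosomes, and 5 held a GLI core, 1 near HoxB, 3 near HoxC and 1 near HoxD. Over all GBS on placed chromosomes 12.2% held a core. Their widths ran from 752 to 4129 bp with a median of 1726 bp, against 1995 bp over all of them.

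When the distance was extended step by step, the first Hox genes with a GBS appeared beyond 150 kb. Within 200 kb there were 6 of 39, 5 of them in HoxC and 1, *Hoxb13*, in HoxB, while 53.2% of all protein-coding genes had a GBS. Within 300 kb there were 16, or 41%, against 63.5% of all genes. Within 400 kb there were 28, that is all of HoxB, HoxC and HoxD, or 71.8%, and the share of all genes was 70.8%. The HoxA genes followed between 500 and 650 kb. The share of Hox genes was below that of all genes at every distance computed up to 350 kb, about level at 400 kb, below again at 500 kb (71.8% against 75.6%) and above from 600 kb (87.2% against 79.4%).

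**Figure D4:**
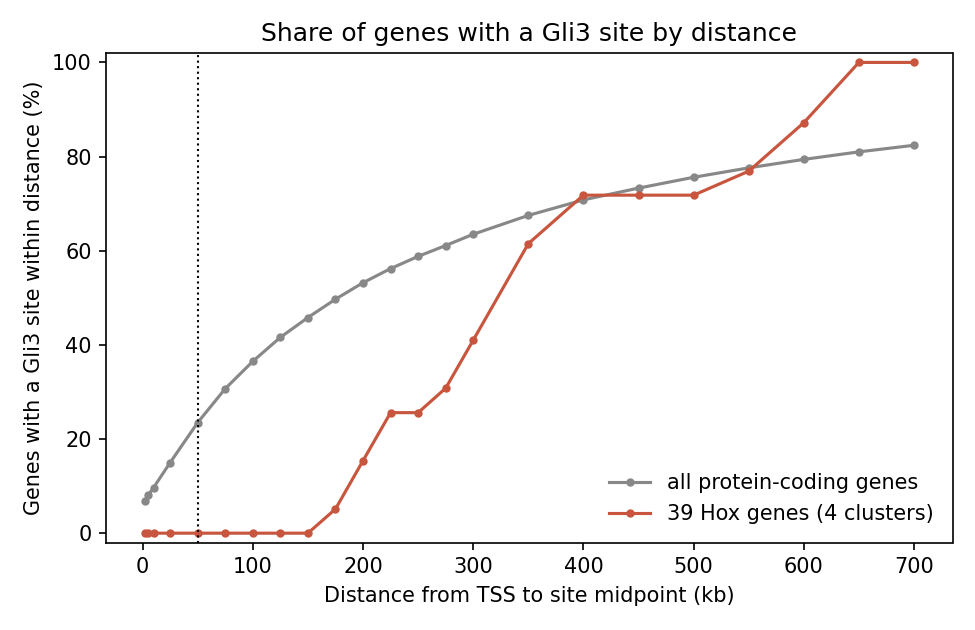
Percent of genes with a GBS midpoint within a given distance of the TSS, in kb on the x axis, for the 39 Hox genes (red) and all protein-coding genes (grey), with a dotted line at 50 kb. The red curve stays at 0 up to 150 kb, where the grey one has reached 45.8%, comes level with it at 400 kb, lies below it again at 500 kb and above it from 600 kb.

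The other genes inside the Hox clusters lie in the same empty stretches and so were necessarily without a nearby GBS. There are 46 of them in GENCODE M21, most of them noncoding, and the smallest distance to a GBS was 167.8 kb, at the microRNA gene *Mir615* in HoxC. The microRNA genes of the *Mir196* family, which target Hox transcripts, were at 209.3 kb (*Mir196a-2*, HoxC), 258.4 kb (*Mir196a-1*, HoxB) and 610.4 kb (*Mir196b*, HoxA). *Mir10a* in HoxB and *Mir10b* in HoxD were at 310.4 and 308.6 kb. Of 10 protein-coding neighbours of the clusters, 2 had a GBS within 50 kb, both beyond HoxC, a share of 20% beside the 23.5% of all genes. *Evx1* and *Evx2*, homeobox genes next to *Hoxa13* and *Hoxd13*, were at 693.7 and 375.1 kb.

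Genes that act with or upon Hox genes were then compared in lists. Of the 50 cofactors and regulators, 16 had a GBS within 50 kb (32%). The share was 23.5% among all protein-coding genes and 30.6% among those with a CpG-rich start. Among the Polycomb proteins, which hold Hox genes silent, 8 of 17 had a GBS within 50 kb, and 2 of the 17 had one at the promoter. The starts of 14 of the 17 were CpG-rich. Over all 50 genes 3 (6%) had one within 2 kb, close to the 6.88% of all protein-coding genes and below the 12.2% of those with a CpG-rich start, which 32 of the 50 have. *Ezh1*, a histone methyltransferase of Polycomb repressive complex 2, had a GBS of 3639 bp centred 514 bp downstream of its TSS. *Ring1*, a ubiquitin ligase of Polycomb repressive complex 1, had one of 5025 bp centred 1885 bp upstream. Among the Trithorax proteins, which keep Hox genes active, 3 of 9 had a GBS within 50 kb. *Kmt2a*, the methyltransferase known for sustaining Hox expression, had a GBS of 2823 bp centred 83 bp upstream of its TSS. None of these promoter GBS held an exact core. Among the TALE homeodomain cofactors of the Meis, Pbx and Pknox families 3 of 9 had a GBS within 50 kb. Among Cdx genes and genes of retinoic acid signalling 2 of 10 had one, and neither list had a GBS at a promoter. Of the 5 genes that regulate Hox genes in the hindbrain, 0 had a GBS within 50 kb.

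Other homeobox genes were the closest in kind. Of 53 genes of families such as Dlx, Irx, Nkx, Lhx, Gsx, Msx, Otx and Emx, 7 had a GBS within 50 kb (13.2%), against 23.5% of all protein-coding genes. No GBS lay within 100 kb of 38 of them, which was also so for 63.5% of all protein-coding genes. At promoters 2 of the 53 had a GBS, beside 6.88% of all protein-coding genes. *Otx1*, a cortical and midbrain factor, had a GBS of 2679 bp centred 776 bp upstream of its TSS, and *Gsx2*, a factor of the ventral telencephalon, one of 627 bp centred 1771 bp downstream. The Dlx genes had 0 of 6 and the Irx genes, which like Hox genes lie in tandem clusters, 0 of 6, while the Nkx genes had 1 of 14 and the Lhx genes 1 of 8. The surroundings of these genes were sparse where those of the Hox genes were dense, with a median of 0 other protein-coding TSSs within 50 kb against 7. Their median distance to a GBS was 255.4 kb, against 322.8 kb for the Hox genes, and their starts were CpG-rich in 41 of 53. Over protein-coding genes with no other such TSS within 50 kb, 17% had a GBS within 50 kb, and 24.5% of those with a CpG-rich start.

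**Figure D5:**
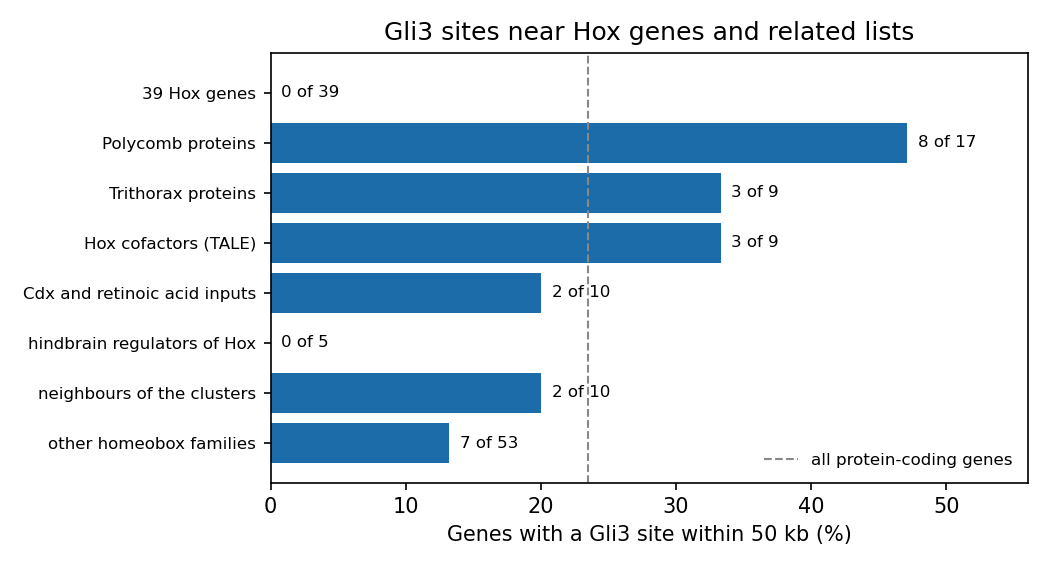
Percent of genes with a GBS within 50 kb in each list, with the counts beside the bars and a dashed line at the 23.5% of all protein-coding genes. The Hox genes and the hindbrain regulators are at 0, and the Polycomb list, at 8 of 17, is the highest.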

How the data were processed

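ChIP-seq of wild-type cortices at embryonic day 15 comprised 3 Gli3 ChIP and 3 input DNA libraries, described in the paper as biological replicates. Per the labels and the heading of the file, the authors used 85 bases from each end, filtered repeats and mapped with Bowtie2 to mm10, and the submitters' processing notes also name SAMtools and MACS2. What the authors deposited is 1 list of positions, the peaks whose ranks recurred between replicates (irreproducible discovery rate, optimal set). The thresholds are not given in the sources used here.

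Starts were converted to 1-based coordinates. Genes came from GENCODE M21 and sequence from GRCm38.p6, the assembly of mm10. The TSS of a gene was the end of its gene record at which transcription starts, and a GBS was placed by its midpoint. Other genes were described in lists, 1 listed neighbour of HoxB having no record under its name, and named when a GBS lay within 2 kb of the TSS. The members and the lists were chosen with earlier results of these data known. No test was made, since the list has no replicates and the genes of a cluster share their surroundings. The distance and motif code was tested on simulated data. Alternatives concerned the distance, the TSS, the part of the site counted, the joining of sites and their width. The work used python 3.11.15, numpy 2.4.6 and matplotlib 3.10.9. Some single genes covered by these rules are counted in the totals and not reported here.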

Additional observations from a re-analysis of the deposited data

How the results depend on the processing

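The Hox results did not move under the alternatives set at the outset. Of 21 such values, 21 were 0. They cover distances of 10, 25 and 100 kb, any base of a GBS in the window, the TSSs of all transcripts, GBS within 1 kb of each other joined (4016 left), GBS of at least the median width of 1989 bp (2057 left), 4 other definitions of a promoter and 3 other ways to count GBS inside the clusters. Apart from the definitions of a promoter and the counts inside the clusters, each setting gave both a count of Hox genes and a count of GBS. Both counts are 0 or neither is, so that the 21 values are not 21 separate checks. Most of these zeros were fixed once no GBS touched the 50 kb windows. This holds for 10 and 25 kb, joined or wide GBS, all definitions of a promoter and counts inside the clusters. Such values add no support, while those at 100 kb could have differed. Those within 50 kb of the TSSs of all transcripts could have differed only where a gene at the end of a cluster runs beyond the outermost TSS. With distances chosen after seeing the data, 6 Hox genes and 3 GBS were counted at 200 kb, and 28 Hox genes and 12 GBS at 400 kb. For the 50 cofactors and regulators the count of 16 changed with distance, to 5 at 10 kb, 9 at 25 kb, 31 at 200 kb and 40 at 400 kb, as larger windows must hold more. Over all protein-coding genes the share with a GBS was 9.7%, 15%, 53.2% and 70.8% at these distances. The other alternatives for the 50 genes gave 11 to 23. The width of GBS near Hox genes, and the share with a GLI core, could not be given with any alternative set at the outset, since there were no such GBS. The list gives no score, so that a stricter or looser call of peaks could not be tried, and a GBS below the authors' threshold would not be seen. No paired analysis was possible because the replicates were joined before deposit.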
